A study of Homo sapiens with 4 samples.

Results

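The 43 human collagen genes other than COL17A1 were examined for open chromatin in the foreskin fibroblast line BJ. They comprised 11 fibrillar, 9 basement membrane and 10 FACIT genes (fibril-associated collagens with interrupted helices) and 13 others. A peak was assigned to a gene when its summit lay in the gene body or within 50 kb of any GENCODE transcription start site (TSS). With the caller's −log10 q at 10 or more, such peaks being called open regions here, 307 of the 56680 CTR regions and 331 of the 62343 p63 regions lay at a collagen gene. All deposited peaks gave 570 of 101142 and 609 of 109486. At least 1 open region was found at 41 genes. COL6A5 and COL6A6, which encode related chains of type VI collagen, had peaks under the threshold only, with 2 and 5 in the CTR list and 1 and 3 in the p63 list. In each list, 14 regions lay in the windows of 2 collagen genes, and these were counted once except in counts per gene.

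ATAC-seq reads out accessible DNA by the insertion of a transposase. BJ cells carrying doxycycline-inducible retroviral constructs expressed either KLF4 alone (CTR) or ΔNp63α together with KLF4 (p63) for 72 h, so KLF4 was present in both groups. Each group had 2 samples, made by renewed induction of the same polyclonal lines. Peaks were called per condition, and 1 list per group was deposited. Each list names a single alignment built on a pair of read files. The paper describes peak calling from 2 replicates per condition, so each list is taken here to rest on both samples. The name alone does not tell if the pair stands for both samples or for the mates of 1 library. With 1 list per group, no spread between replicates can be given and no test was possible. Each comparison below is between 2 lists.

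Collagens are the main structural proteins of the extracellular matrix. Fibrillar collagens such as types I, III and V form the fibrils of dermis and are major products of fibroblasts. Type IV collagen builds the network of basement membranes, on which keratinocytes rest. Type VII collagen, encoded by COL7A1, forms the anchoring fibrils that hold epidermis to dermis. FACIT collagens decorate the surface of fibrils.

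The p63 protein binds a site of paired decamers, each with a C and a G at its core. A full site of 20 bp, with these core letters fixed, at most 3 mismatches at the other 16 positions and lying within 100 bp of the summit, was found in 4 of the 72 collagen regions open in the p63 list only. These sites are shown with the site in capitals, on the plus strand of GRCh38 (hg38), because they are the collagen regions where a p63 sequence and a p63-only opening coincided. The COL18A1 site (chr21:45373156-45373215) lay 32.0 kb from the nearest COL18A1 TSS and had 1 mismatch. The COL4A6 site (chrX:108313160-108313219) lay in the gene body with 2 mismatches. The COL16A1 site (chr1:31730544-31730603) and the COL26A1 site (chr7:101426831-101426890) had 3 mismatches, the former being nearer to the TSS of ADGRB2 than to that of COL16A1. The last line gives the COL25A1 site (chr4:108834301-108834360), also with 3 mismatches, which lay in a region open in both lists and far stronger in p63.
COL18A1: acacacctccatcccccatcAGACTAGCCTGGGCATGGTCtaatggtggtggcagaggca
COL4A6: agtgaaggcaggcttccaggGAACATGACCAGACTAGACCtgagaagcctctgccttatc
COL16A1: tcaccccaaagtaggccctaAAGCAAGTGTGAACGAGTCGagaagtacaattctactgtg
COL26A1: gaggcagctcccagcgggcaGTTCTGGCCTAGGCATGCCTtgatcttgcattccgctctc
COL25A1: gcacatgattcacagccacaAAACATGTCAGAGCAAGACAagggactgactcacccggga

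Cell identity was checked first by promoters, a promoter being open when a region's summit lay within 3 kb of a TSS. Over all protein-coding genes, 69.4% had an open promoter in CTR and 70.8% in p63, so counts out of 10 give only a rough check. All 10 fibroblast markers, among them VIM, PDGFRB, DCN and LUM, were open in both lists. Of 10 keratinocyte markers, 5 were open in CTR and 6 in p63, KRT5 being open in p63 alone, whereas DSG3, DSC3, PKP1 and TP63 were open in neither. Chondrocyte and hematopoietic markers gave 3 and 4 of 10 in each list, and endothelial markers 3 in CTR and 1 in p63.

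To see whether ΔNp63α changed which collagen chromatin was open, regions were called p63-only or CTR-only when no region of the other list overlapped them by 1 bp. At collagen genes, 72 of 331 p63 regions were p63-only (21.8%, 95% Wilson interval 17.6 to 26.5, which covers counting error only), compared with 23.9% of all p63 regions and 22.9% of those at protein-coding genes. Conversely, 49 of 307 CTR regions were CTR-only (16%, 12.3 to 20.5), compared with 16.5% of all CTR regions and 15.4% of those at protein-coding genes. Both shares were thus close to the background. Most of these regions did overlap a weaker peak of the other list. Only 25 p63 regions (7.55%, 5.17 to 10.9) had no CTR peak at any threshold, against 12% of all p63 regions, and only 9 CTR regions (2.93%, 1.55 to 5.48) had no p63 peak, against 3.29% of all CTR regions. With all deposited peaks, 145 of 609 p63 peaks at collagen genes were p63-only (23.8%; background 27.1%) and 111 of 570 CTR peaks were CTR-only (19.5%; background 21.4%). Regions close to the threshold were common, 44 CTR and 36 p63 peaks having a −log10 q between 9 and 11. The values just inside and just outside were 10.1 at COL13A1 and 9.98 at COL8A2 in CTR, and 10.01 at COL25A1 and 9.94 at COL6A1 in p63.

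**Figure D1:**
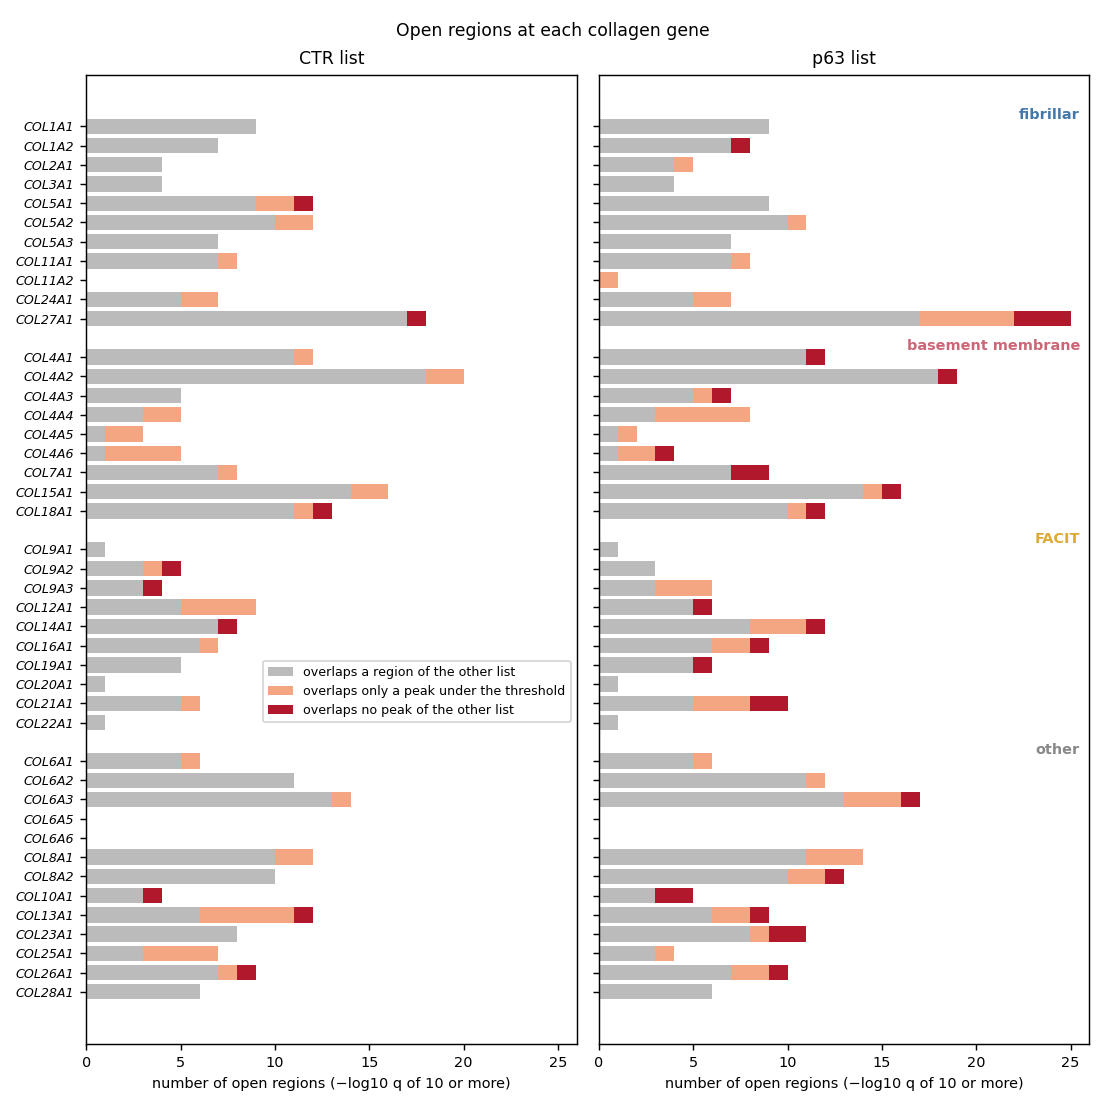
Number of open regions at each of the 43 collagen genes in the CTR list (left) and the p63 list (right), horizontal axes in regions with a −log10 q of 10 or more, divided by their overlap with the other list. COL27A1 had the most regions in the p63 list, 25, and 18 in the CTR list, and regions in grey, present in both lists, made up most bars.

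The genes varied among themselves. In the p63 list, which was the longer one, 19 genes had more regions than in the CTR list (44.2%; 42.2% of all protein-coding genes), 10 had fewer (23.3%; background 19.2%) and 14 had the same number. A p63-only region was found at 32 genes (74.4%; background 58.2%) and a CTR-only region at 26 (60.5%; background 41.9%). Collagen genes had more regions to begin with, a median of 7 in CTR and 8 in p63 compared with 4 and 5 over all protein-coding genes, so that these counts of genes are no result about collagens. Neither kind was found at 9 genes, which were COL1A1, COL3A1, COL5A3, COL9A1, COL20A1, COL22A1, COL28A1 and the 2 genes without any open region. The CTR and p63 lists held 4 and 5 regions at COL2A1, 12 and 11 at COL5A2, 7 and 7 at COL5A3, 8 and 8 at COL11A1, and 7 and 7 at COL24A1. They held 5 and 7 at COL4A3, 3 and 2 at COL4A5, 6 and 6 at COL6A1, 12 and 14 at COL8A1, 10 and 13 at COL8A2, and 6 and 6 at COL28A1. Collagen windows were relatively rich in open chromatin, with 3.08 regions per 100 kb in CTR and 3.32 in p63, compared with 2.54 and 2.79 for the windows of all protein-coding genes. FACIT windows were the sparsest subtype, at 1.89 and 2.21, and basement membrane and fibrillar windows lay between 3.68 and 3.93.

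Across subtypes, the p63-only share was lowest at fibrillar genes with 15 of 93 regions (16.1%, 10.03 to 24.9). It was 16 of 77 at basement membrane genes (20.8%, 13.2 to 31.1), 24 of 106 at other genes (22.6%, 15.7 to 31.5) and 17 of 55 at FACIT genes (30.9%, 20.3 to 44.03). The CTR-only share was 9 of 87 at fibrillar (10.3%, 5.54 to 18.5), 10 of 47 at FACIT genes (21.3%, 11.99 to 34.9) and 17.3% at both basement membrane (13 of 75) and other genes (17 of 98). The intervals of the subtypes overlapped, the order was not tested, and it turned with the settings. The p63-only share was higher at fibrillar than at basement membrane genes with 10 kb (21.7% and 17.5%) or 3 kb (20% and 18.2%) around a TSS, at a −log10 q of 20 (26.4% and 23.8%) and with all deposited peaks (22.9% and 20.2%). The CTR-only share at other genes exceeded that at FACIT genes with 10 kb (24.2% and 18.8%), with 3 kb (26.3% and 20%) and, barely, with equal numbers of peaks (21.4% and 21.3%). That of fibrillar genes was 21.8% with all deposited peaks, above the 16.9% of basement membrane and other genes. COL27A1 alone held 8 of the 15 fibrillar p63-only regions. Without it the fibrillar p63-only share was 10.3% (5.08 to 19.8), an interval below the 23.9% of all p63 regions. COL27A1 was left out for having the most, so the lower value follows in part from that choice. Without COL13A1, chosen likewise, the CTR-only share at other genes was 12.8% (7.3 to 21.5).

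**Figure D2:**
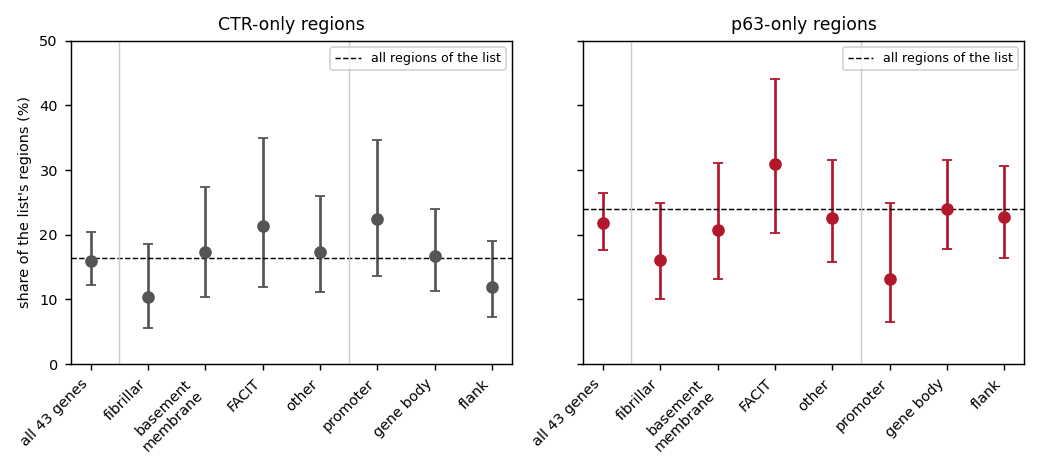
Share of CTR regions that were CTR-only (left) and of p63 regions that were p63-only (right), in percent, for all 43 genes, the 4 subtypes and the 3 locations, with 95% Wilson intervals and, as a dashed line, the share over all regions of the list. Every interval shown includes the dashed line.

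Among the fibrillar genes of dermis, COL1A1 and COL1A2, which encode the chains of type I collagen, kept their regions. COL1A1 had 9 regions in each list, all shared. COL1A2 had 7 in CTR and 8 in p63, the additional one being a weak region 8.92 kb from a TSS (chr7:94436143-94436442, −log10 q 11.2). The COL1A1 promoter region had a −log10 q of 44.8 in CTR and 43.8 in p63, and a fold enrichment, the caller's ratio of pileup to local background, of 5.82 and 6.14. At the COL1A2 promoter the −log10 q was 74.9 in CTR and 57.8 in p63, with fold enrichments of 10.6 and 9.66 and pileups of 115 and 93. COL3A1, which encodes type III collagen, had the same 4 regions in both lists, and its promoter region had a −log10 q of 31.9 in CTR and 21.6 in p63. Fold enrichment was lower in p63 at 5 of 7 shared regions of COL1A2 (log2 ratio of p63 to CTR from −0.42 to 0.24), at 6 of 9 of COL1A1 (−0.47 to 0.09) and at 3 of 4 of COL3A1 (−0.36 to 0.32). Such small ratios were common across the lists, the log2 ratio over all shared regions having a median of 0.05 and quartiles of −0.13 and 0.22. Most shared regions were thus higher in p63. Counts of higher or lower regions per gene, here and below, only describe the gene. Fold enrichment was not scaled between the lists.

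COL27A1, which encodes a fibrillar collagen of cartilage, had the most p63-only regions of any collagen gene, 8 of its 25, and 17 were shared. The strongest of the 8 was in the gene body (chr9:114278751-114279333), with a −log10 q of 32.0 in p63 and 5.84 in CTR and pileups of 64 and 22. Similar differences were seen at chr9:114203459-114203923 (26.3 in p63, 5.45 in CTR) and chr9:114172929-114173433 (25.4 and 3.11). No CTR peak at all overlapped the remaining gene-body regions at chr9:114212824-114213140 (13.8) and chr9:114273411-114273785 (11.1) or the promoter region at chr9:114157753-114158018 (11.7), all of which were weak. A shared COL27A1 region showed the opposite in fold enrichment, 14.1 in CTR and 8.56 in p63, although its pileup was 77 in CTR and 84 in p63, the local background being higher in p63. COL5A1, of type V collagen, had the most CTR-only regions of the fibrillar genes, 3 of 12, all weak, with −log10 q between 10.1 and 12.1. All 9 p63 regions of COL5A1 were shared. COL11A2 lies in the MHC, which the reference holds in several alternate copies. Its single region, p63-only with a CTR peak of −log10 q 8.42, lay at the TSS of RXRB, and the sequence around its summit occurred on 5 other reference sequences. The effect of these copies on the placement of reads was not tested.

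**Figure D3:**
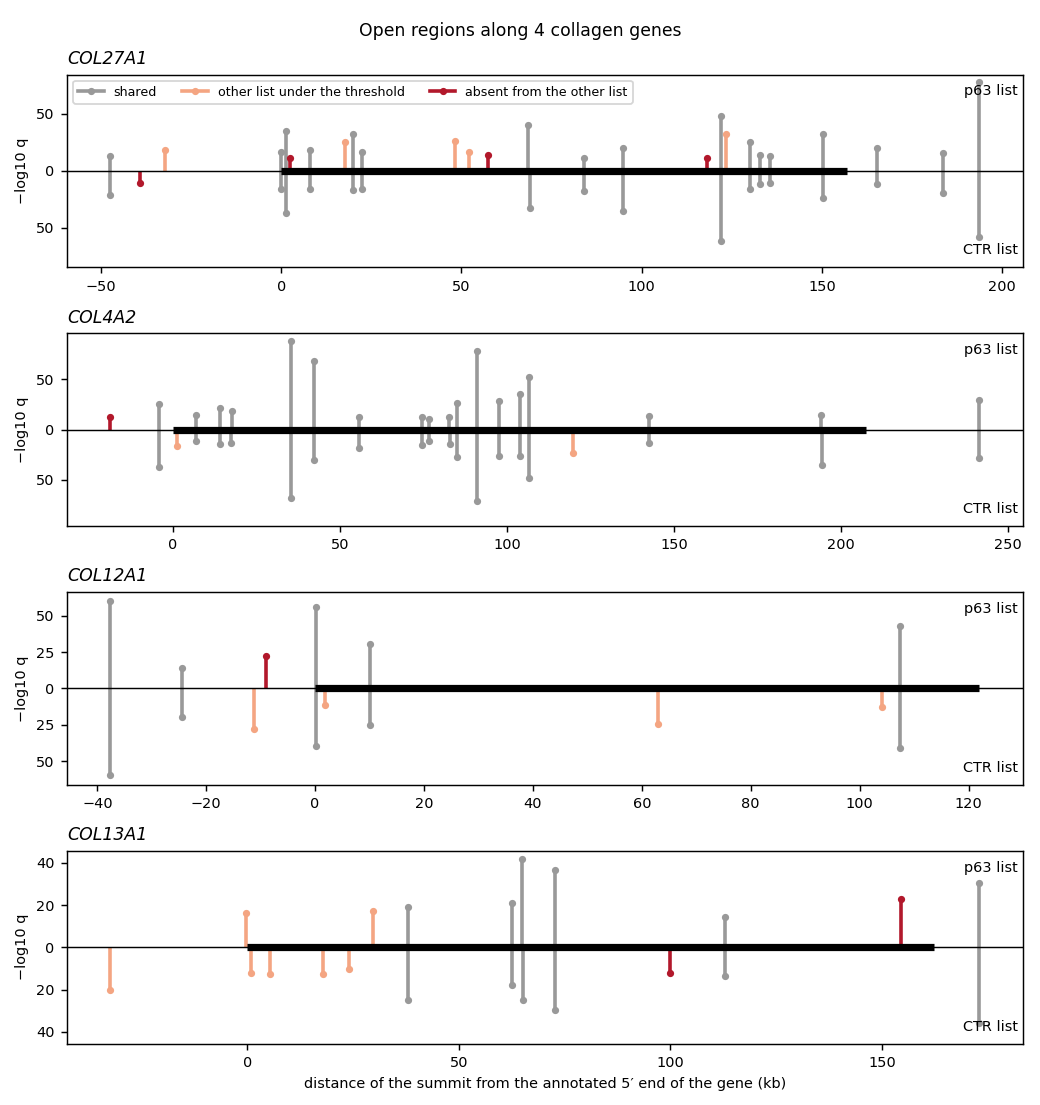
Open regions along COL27A1, COL4A2, COL12A1 and COL13A1, as −log10 q (vertical axes, p63 list upwards and CTR list downwards) against the distance of the summit from the 5′ end of the gene in kb, with the gene body as a thick black bar. The 8 p63-only regions of COL27A1 and the 6 CTR-only regions of COL13A1 are in colour, and most regions in grey are mirrored in the other list.

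Among basement membrane genes, COL4A1 and COL4A2 encode the ubiquitous chains of type IV collagen and are transcribed in opposite directions from a shared promoter. The region over this promoter (chr13:110306733-110307827) was CTR-only, with a −log10 q of 16.7 in CTR and 8.84 in p63 and pileups of 40 and 28, so that a peak was present in both. It covered exon 1 of COL4A1 and had a GC content of 78.1% around the summit. Elsewhere in this pair the regions were largely retained, 11 of 12 at COL4A1 and 18 of 20 at COL4A2 being shared. The other CTR-only region of COL4A2 lay in the gene body, 0.763 kb from an internal TSS, with a −log10 q of 23.5 in CTR and 9.54 in p63 and pileups of 28 and 14. With both this region and the shared promoter region under the threshold in p63, COL4A2 had no open promoter there. The sequence of the gene-body region held a consensus AP-1 site (TGACTCA or, on the other strand, TGAGTCA). It is shown in capitals in the 201 bases around the summit (chr13:110425465-110425665, plus strand). Of the 18 shared regions of COL4A2, 13 had a higher fold enrichment in p63.
COL4A2: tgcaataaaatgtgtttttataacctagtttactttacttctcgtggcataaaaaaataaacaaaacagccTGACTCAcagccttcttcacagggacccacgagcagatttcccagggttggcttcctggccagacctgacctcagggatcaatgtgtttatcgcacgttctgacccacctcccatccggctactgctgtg

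COL7A1 had a strong promoter region in both lists, with a −log10 q of 74.5 in CTR and 81.2 in p63, fold enrichments of 7.90 and 7.24 and pileups of 142 and 166. Of its 8 CTR and 9 p63 regions, 7 were shared. A pair of p63-only regions without any CTR peak lay 29.2 and 46.2 kb from its TSS (−log10 q 18.3 and 14.7), both nearest to PFKFB4. The chains COL4A3 to COL4A6, whose expression is restricted to specialised basement membranes, had fewer and weaker regions. COL4A4 had the most p63-only regions of this subtype, 5 of 8, and each overlapped a CTR peak under the threshold. COL4A6 had 4 CTR-only and 3 p63-only regions and only 1 shared one, the promoter that it shares with COL4A5 (−log10 q 13.4 in CTR and 11.9 in p63). Its CTR-only regions all overlapped weaker p63 peaks, and their pileups of 15 to 20 in CTR against 11 to 13 in p63 were near the low end of what reached the threshold, where the lowest pileup was 15 in each list.

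COL18A1 encodes the precursor of endostatin in vascular and epithelial basement membranes. Its p63-only region upstream of the gene (chr21:45373057-45373452) had a −log10 q of 26.8, a fold enrichment of 10.9 and a pileup of 35, and no CTR peak overlapped it. It ranked at the 57.7th percentile of all p63 regions and carried the best p63 site of the set, as well as an AP-1 site. The 201 bases around its summit (chr21:45373054-45373254, plus strand) are printed because they hold both, in capitals. A further COL18A1 region in the gene body was shared but stronger in p63, with a −log10 q of 16.5 in CTR and 46.2 in p63. COL15A1, which encodes a close relative, had 14 of 16 regions shared and a lower fold enrichment in p63 at 11 of these.
COL18A1: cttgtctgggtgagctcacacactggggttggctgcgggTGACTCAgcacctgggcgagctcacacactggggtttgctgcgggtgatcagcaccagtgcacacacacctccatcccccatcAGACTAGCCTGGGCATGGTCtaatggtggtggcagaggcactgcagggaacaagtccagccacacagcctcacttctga

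The FACIT genes had regions of both kinds. COL21A1 had the most p63-only regions, 5 of 10, and all lay in the gene body with −log10 q between 10.3 and 19.1. At an internal TSS of COL21A1, a region fell by 0.85 on the log2 scale in fold enrichment, the lowest ratio of any shared collagen region. It had a −log10 q of 32.8 in CTR and 11.8 in p63 and pileups of 35 and 16. The canonical TSS of COL21A1 was not open in either list. COL12A1, whose product binds type I fibrils, had the most CTR-only regions, 4 of 9. The strongest lay 11.1 kb upstream (chr6:75217150-75217778), with a −log10 q of 27.6 in CTR and 4.22 in p63 and pileups of 33 and 11. Next to it, at chr6:75215097-75215386, lay a p63-only region without any CTR peak (−log10 q 22.6). A further CTR-only region covered coding exon 26 of COL12A1 (chr6:75142931-75143453), with 24.3 in CTR and 8.46 in p63, and the AP-1 site near its summit is shown in capitals (chr6:75143235-75143435, plus strand). The COL12A1 promoter itself was shared and had a −log10 q of 39.6 in CTR and 55.9 in p63.
COL12A1: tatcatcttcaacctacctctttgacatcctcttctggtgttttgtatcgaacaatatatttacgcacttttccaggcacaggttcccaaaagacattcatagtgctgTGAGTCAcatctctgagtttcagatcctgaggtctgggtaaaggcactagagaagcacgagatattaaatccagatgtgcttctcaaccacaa

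COL16A1 and COL19A1 were uniform, with a higher fold enrichment in p63 at 6 of 6 and 5 of 5 shared regions. Their log2 ratios were 0.07 to 0.43 and 0.13 to 0.46, compared with a median of 0.05 over all shared regions. The p63-only region with the p63 site near COL16A1 (chr1:31730471-31730684) had a −log10 q of 35.7 and a fold enrichment of 12.9 and was the strongest FACIT region without a CTR peak. COL14A1 had 4 p63-only regions of 12 and 1 CTR-only region of 8. It held both a shared promoter region that rose to a fold enrichment of 14.9 in p63 from 7.73 in CTR and another, at an internal TSS, that went from 10.1 in CTR to 6.28 in p63. COL9A1, COL20A1 and COL22A1 had a single shared region each. COL9A2 and COL9A3, of cartilage type IX collagen, had 5 and 4 regions in CTR and 3 and 6 in p63.

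In the remaining group, COL6A1, COL6A2 and COL6A3 encode the main chains of type VI collagen, a microfibrillar collagen of dermis. COL6A2 had 11 CTR and 12 p63 regions, 11 shared, with a higher fold enrichment in p63 at 10 of these (log2 ratio −0.25 to 0.48). COL6A3 had the most p63-only regions of the group, 4 of 17. The strongest was at chr2:237298665-237299083, with a −log10 q of 31.9 in p63 and 4.96 in CTR, while another, at chr2:237306632-237307015, had 25.6 in p63 and no CTR peak. At its canonical TSS, COL6A3 had a CTR-only region of −log10 q 16.2, which was 8.16 in p63. COL13A1, a transmembrane collagen, had the most CTR-only regions of any collagen gene, 6 of 12, with −log10 q between 10.1 and 20.1, and 5 of them overlapped a p63 peak under the threshold. The strongest region without a CTR peak in the group was at COL10A1, of hypertrophic cartilage (chr6:116200904-116201293, −log10 q 38.4, fold enrichment 16.4), 42.3 kb from its TSS. COL26A1 had a p63-only region with a p63 site in the gene body (−log10 q 19.1). COL25A1, a transmembrane collagen of neurons, had 4 CTR-only regions of 7 and 1 p63-only region of 4.

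Most collagen promoters were open in both lists. At any annotated TSS, at least 1 promoter region was found for 35 of 43 genes in CTR (81.4%) and 34 in p63 (79.1%). The shares over 20033 protein-coding genes were 69.4% and 70.8%, and 33 collagen genes were open in both. At the canonical TSS alone, 30 genes were open in CTR and 28 in p63, without a background count. At basement membrane genes these were 9 and 6, COL4A1, COL4A2 and COL15A1 being open there in CTR alone. COL26A1 was likewise open there in CTR alone, and COL2A1 and COL23A1 in p63 alone. By any TSS, COL4A2 and COL26A1 were open in CTR alone, and in p63 their peaks missed the threshold narrowly, with −log10 q of 9.54 and 9.52. COL23A1 was open in p63 alone, its strongest CTR promoter peak, of −log10 q 3.89, lying at another TSS. The p63 region, upstream of the gene and 0.806 kb from the TSS (chr5:178590869-178591669), had a −log10 q of 24.9 and a fold enrichment of 11.6 and no CTR peak. It held none of the motifs searched in the 201 bases around its summit (chr5:178591099-178591299, plus strand), which are shown as the only promoter gained by the count at any TSS.
COL23A1: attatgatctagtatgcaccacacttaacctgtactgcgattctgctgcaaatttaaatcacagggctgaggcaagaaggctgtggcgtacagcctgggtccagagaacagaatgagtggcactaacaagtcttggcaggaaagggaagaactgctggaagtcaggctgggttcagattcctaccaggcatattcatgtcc

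The promoters of COL11A2, COL9A1, COL9A3, COL20A1, COL22A1, COL6A5 and COL6A6 were open in neither list. For the 33 genes open in both, the strongest promoter region had a −log10 q between 12.3 and 74.9 in CTR and between 11.8 and 97.4 in p63, and was higher in p63 for 22 genes. This held for 5 of 6 FACIT and 8 of 9 other genes, but for 5 of 10 fibrillar and 4 of 8 basement membrane genes. The same count over all protein-coding genes was not made. At COL5A1, COL14A1 and COL16A1 the strongest region lay at a different TSS in each list. The highest value was that of COL28A1, at an internal TSS, with 59.97 in CTR and 97.4 in p63.

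**Figure D4:**
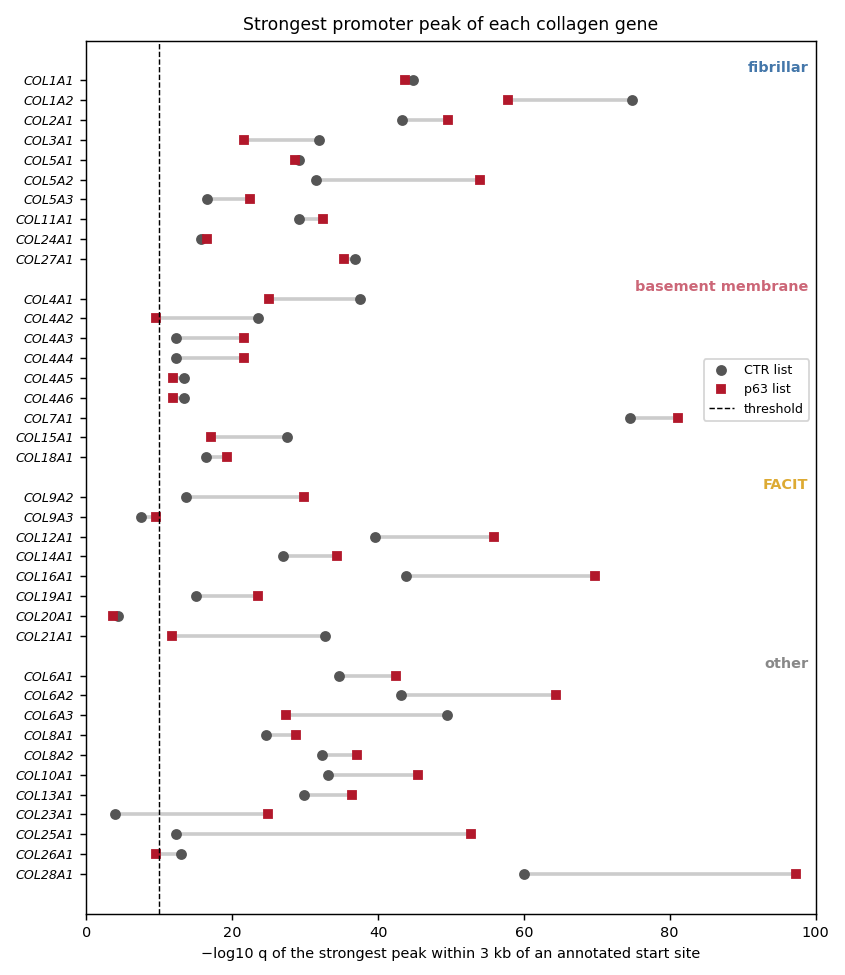
The −log10 q (horizontal axis) of the strongest peak within 3 kb of a TSS of each collagen gene in the CTR list (circles) and the p63 list (squares), with the threshold of 10 as a dashed line. Genes without such a peak in either list are not drawn. COL4A2 and COL26A1 lie above the line in CTR and below it in p63. COL23A1 lies above it in p63 alone, and its points, like those of COL5A1, COL9A3, COL14A1, COL16A1 and COL20A1, are peaks at different places in the 2 lists.

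Promoters were also counted by region. Of 58 CTR regions within 3 kb of a collagen TSS, 13 were CTR-only (22.4%, 13.6 to 34.7), while the same share was 8.61% within 3 kb of the TSS of any protein-coding gene. In the p63 list the shares were 7 of 53 (13.2%, 6.55 to 24.8) and 13.3%. Of the 13 CTR-only regions, 11 overlapped a weaker p63 peak, and 3 each belonged to COL12A1 and COL13A1. Around canonical TSSs, the CTR-only share was 6 of 32 (18.8%, 8.89 to 35.3) against 4.78%, and the p63-only share 5 of 34 (14.7%, 6.45 to 30.1) against 7.27%. At a −log10 q of 20, the CTR-only share was 6 of 29 (20.7%, 9.85 to 38.4) against 8.11%, and the p63-only share rose to 11 of 34 (32.4%, 19.1 to 49.2) against 13.03%. With all deposited peaks, where a weak peak suffices, they were 17 of 107 (15.9%, 10.2 to 24.0) against 12.9% and 24 of 112 (21.4%, 14.8 to 29.9) against 17.8%. Within 1 kb of a TSS, the CTR-only share was 22.9% (12.07 to 39.02) against 6.03%, and the p63-only share 9.68% (3.35 to 24.9) against 8.27%. With an overlap of 50% of both peaks, they were 27.6% (17.75 to 40.2) against 11.95% and 22.6% (13.45 to 35.5) against 16.7%. Counting only regions without any peak in the other list, they were 2 of 58 (3.45%, 0.951 to 11.7) against 1.38% and 4 of 53 (7.55%, 2.97 to 17.9) against 5.83%. The CTR-only share thus lay above its background in each of these settings. Its interval included the background with all deposited peaks and when only regions without any peak in the other list were counted. The p63-only interval excluded the background only at a −log10 q of 20. These excesses were not tested. Collagen promoter regions were weaker than other promoter regions, with a median −log10 q of 21.4 against 32.5 in CTR and 24.9 against 33.0 in p63. The part of this in the difference was not tested. In gene bodies, 22 of 132 CTR regions were CTR-only (16.7%; 20% over the bodies of all protein-coding genes, each region counted once per gene) and 35 of 146 p63 regions p63-only (23.97%; background 28%). In the flanks it was 14 of 117 (11.97%; background 12.2%) and 30 of 132 (22.7%; background 21%). Flank regions were nearest to a coding gene other than the collagen gene in 65 of 117 and 74 of 132 cases.

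The strength of the shared regions was compared next. The 259 shared p63 regions at collagen genes had a median log2 ratio of fold enrichment (p63 over CTR) of 0.05 (95% interval 0.02 to 0.08 from the order of the regions, which are not replicates), as did all 47412 shared regions of the list (0.05). The ratios ranged from −0.85 to 1.10. By subtype the median was −0.01 at basement membrane, 0.03 at fibrillar, 0.09 at other and 0.12 at FACIT genes. The fold enrichment was at least 1.5 times higher in p63 at 9 regions (3.47%; background 3.04%) and at least 1.5 times lower at 6 (2.32%; background 1.53%), shares close to the background. The highest ratio was in the COL25A1 region with the p63 site, with fold enrichments of 8.07 in CTR and 17.3 in p63, −log10 q of 12.3 and 52.7 and pileups of 17 and 55. It lay in the gene body, 1.60 kb from an internal TSS, and held an AP-1 site next to the p63 site, both in capitals in the 201 bases around the summit (chr4:108834196-108834396, plus strand).
COL25A1: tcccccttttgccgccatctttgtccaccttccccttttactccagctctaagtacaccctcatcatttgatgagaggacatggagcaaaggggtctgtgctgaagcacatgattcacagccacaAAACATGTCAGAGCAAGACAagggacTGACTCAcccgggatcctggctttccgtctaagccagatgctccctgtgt

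Next in order were gene-body regions of COL4A3 (log2 ratio 0.99, pileups 18 in CTR and 54 in p63) and COL18A1 (0.94, 29 and 55) and the COL14A1 promoter region (0.94, 16 and 36). The lowest ratios after COL21A1 were those of the COL27A1 region described above (−0.72), the internal COL14A1 promoter (−0.69, 38 and 20) and a gene-body region of COL24A1 (−0.62, 31 and 18).

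**Figure D5:**
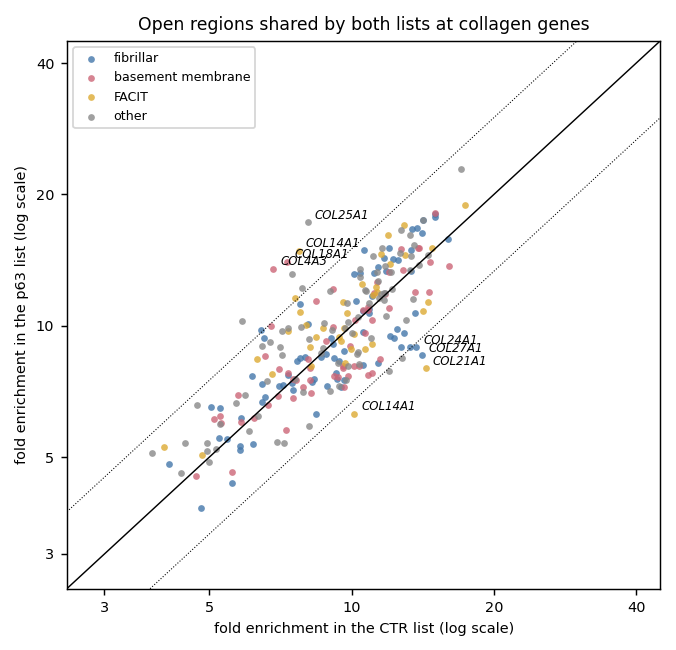
Fold enrichment of the 259 shared regions in the CTR list (horizontal) and the p63 list (vertical), both on log scales, coloured by subtype, with the line of equality and dotted lines at a ratio of 1.5. The 4 highest and 4 lowest ratios are labelled, and 15 regions lie on or beyond the dotted lines.

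The p63 site was found in 4 of 72 p63-only regions (5.56%, 2.18 to 13.4), compared with 11.4% of all p63-only regions, and in 3 of 25 without any CTR peak (12%, 4.17 to 30.0), compared with 18.8%. Both background shares lay inside the intervals of these small counts. The share moved with the settings, to 9 of 72 (12.5%; 21.9% of all p63-only regions) with at most 4 mismatches, 2 of 72 (2.78%; 4.3%) with at most 2, and 15 of 145 (10.3%; 10.6%) with all deposited peaks. No CTR-only region had one (0 of 49, which allows up to 7.27%; 0.503% of all CTR-only regions), so this count is near its background. Among shared regions, 5 of 259 did (1.93%; 1.39% of all shared p63 regions). These 5 were COL25A1, COL1A1, COL5A1, COL5A3 and COL23A1, and apart from COL25A1 their log2 ratios lay between −0.02 and 0.43. The AP-1 site was the most frequent motif, in 28.0% of CTR and 26.6% of p63 collagen regions (26.9% and 25.4% of all regions). It was in 19 of 72 p63-only (26.4%; 22.0% of all p63-only regions) and 16 of 49 CTR-only regions (32.7%; 26.1% of all CTR-only regions). The TEAD motif (ACATTCCA, ACATTCCT, GCATTCCA or GCATTCCT, on either strand) was in 8.79% of CTR and 9.97% of p63 collagen regions (8.90% and 8.24% of all). The KLF motif (GGGCGGGGC, GGGCGTGGC, GGGTGGGGC or GGGTGTGGC, on either strand) was in 5.21% and 4.83% (7.40% and 7.14% of all). A match describes letters only and not binding.

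The partners of collagens gave a similar picture. At 31 genes of collagen biosynthesis (prolyl and lysyl hydroxylases, chaperones, propeptide-cleaving proteases and lysyl oxidases), 48 of 245 p63 regions were p63-only (19.6%, 15.1 to 25.01) and 29 of 228 CTR regions CTR-only (12.7%, 9.004 to 17.7). At 8 collagen receptor genes, integrin subunits, discoidin domain receptors and MRC2, it was 14 of 61 (22.95%, 14.2 to 34.9) and 7 of 54 (12.96%, 6.42 to 24.4). At 9 hemidesmosome genes, which include COL17A1 and the chains of the laminin that attaches keratinocytes to the basement membrane, it was 22 of 115 (19.1%, 12.99 to 27.3) and 14 of 107 (13.1%, 7.96 to 20.8). The shares over all regions of the lists, given above, lay inside each of these intervals.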

How the data were processed

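The authors aligned ATAC-seq reads to hg38 with Bowtie2 2.3.4.3 and called peaks with MACS2 per condition. The paper describes calling from the replicates of each condition, but how they were joined in each list was not stated. Each deposited list (103700 CTR and 112294 p63 peaks) gives, per peak, the fold enrichment, a ratio of pileup to local background, a −log10 p-value, a −log10 q-value and the summit offset. These values were not scaled between lists. Options of MACS2, duplicate removal and read shifting were not given in the sources used here, and the number of reads is unknown. Peaks outside chromosomes 1 to 22, X and Y (2558 and 2808) were left out. Overlaps were computed in Python 3.11.15 with pandas 2.3.3, checked against bedtools 2.31.1 on simulated data. Annotation was GENCODE release 44 on GRCh38. Whole pileups and backgrounds were solved from the fold enrichment and −log10 p with scipy 1.17.1, and every peak at a collagen gene gave a solution. Motifs were searched within 100 bp of summits on both strands. Wilson intervals were at 95%. With 1 list per group no p-value was computed, and regions are not replicates. Collagen genes, subtypes and partner lists were chosen with earlier results of these data known. COL1A1, COL1A2, COL3A1, COL4A1, COL4A2 and COL7A1 were named, and, by subtype, the genes with the most p63-only and CTR-only regions, the strongest list-only regions, the p63-only regions with a p63 site and the 4 highest and 4 lowest ratios of shared regions. Other genes named, among them COL2A1, COL5A2, COL5A3, COL11A1, COL24A1, COL4A3, COL4A5, COL8A1, COL8A2, COL15A1, COL19A1, COL6A1, COL6A2, COL9A2, COL9A3 and COL28A1, were chosen after their values were seen.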

Additional observations from a re-analysis of the deposited data

How the results depend on the processing

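No paired analysis was possible because the samples are numbered alike but only 1 peak list per group was used here. Of 135 alternative values, 101 stayed inside the 95% interval of the reported share or median, or within 1.5 times the reported count. Counts and shares cannot change sign. The median log2 ratio of shared regions can, and it stayed positive in each setting, between 0.03 and 0.08. Its interval included 0 with the ratio of pileups (−0.03 to 0.08) and with all deposited peaks (−0.001 to 0.08). The median over all shared regions of the p63 list was likewise positive, at 0.05, so the sign is not particular to collagens. The 135 include repeated entries of the collagen median, also under the rule for regions without any peak, which cannot change it. They also include subtype shares after leaving out COL13A1 (CTR) and COL27A1 (p63). Such shares cannot change in the subtypes without the gene left out. The alternatives for collagen promoter regions were chosen after seeing the data. Numbers of regions followed the threshold and the window, with CTR and p63 counts of 570 and 609 for all deposited peaks, 169 and 192 at a −log10 q of 20, 203 and 215 with 10 kb and 190 and 199 with 3 kb around a TSS. Regions without a peak in the other list numbered 111 in CTR and 145 in p63 for all peaks, 0 and 8 at a −log10 q of 20, and in p63 16 with 10 kb and 14 with 3 kb. Requiring an overlap of 50% of both peaks gave 30 and 51, which include regions with a smaller overlap. At a −log10 q of 20 the p63-only share rose to 27.6%, the fibrillar one to 26.4% and that of promoter regions to 32.4% (13.03% at protein-coding genes), while the CTR-only share was 22% at fibrillar and 9.43% at other genes. Apart from promoter regions, the matching shares over all regions of the lists were not computed at a −log10 q of 20. These shifts can therefore not be read as particular to collagens. The CTR-only share was 21.8% at fibrillar genes with all peaks and 26.3% at other genes with 3 kb. Counting as list-only just the regions without any peak in the other list lowered, by construction, the CTR-only share to 2.93% (fibrillar 2.3%, basement membrane 1.33%, FACIT 6.38%, other 3.06%, promoter regions 3.45%) and the p63-only share to 7.55% (fibrillar 4.3%, basement membrane 9.09%, FACIT 10.9%, other 7.55%). The causes of the other shifts were not tested. Without a replicate spread, only differences far larger than those between neighbouring thresholds can be read, and weak regions near a pileup of 15 are the least certain.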
